A study of Mus musculus with 2 samples.

Results

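Granzyme-expressing CD8 T cells were examined in droplet single-cell RNA sequencing of mouse pancreatic tumors, where they were chosen cell by cell from the counts of a few genes. They numbered 226 of the 14022 cells of the series, 42 of 6904 cells in the PBS library and 184 of 7118 in the cmExoaCD11b library. Both libraries were made from male C57BL/6J mice, 5 to 6 weeks old at purchase, that carried orthotopic tumors of K210, a line of tumor cells derived from a genetically engineered mouse with Trp53 fl/fl and Pdx1-Cre. The PBS group received the vehicle, and the cmExoaCD11b group received exosomes that carried IL-12 mRNA and cGAMP, a ligand of the sensor STING, with an antibody to CD11b on their surface, at 5 µg of cGAMP per mouse. Tumor-infiltrating cells were taken 48 h after treatment, and those of 3 mice per group were combined into 1 library. The transplanted line makes every tumor a graft of the same cells, and pooling makes each library 1 sample, so the differences below could not be tested against the spread between mice.

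CD8 T cells recognize peptides on MHC class I molecules and kill the cells that present them. They release perforin, which opens the target membrane, and granzymes, serine proteases that start cell death inside it. Granzyme A and granzyme B are encoded by Gzma and Gzmb and are carried by activated effector cells, while naive and resting memory cells hold little of either. Interleukin 12 acts on T cells through STAT4, and STING drives type I interferon, which acts through STAT and IRF factors on a large set of interferon-stimulated genes.

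A cell was a barcode with at least 1000 unique molecular identifiers (UMIs, counted RNA molecules) from at least 200 genes and with at most 20% mitochondrial UMIs. A granzyme-expressing CD8 T cell had at least 2 UMIs over Cd3e, Cd3d, Cd3g, Trac and Trbc2, at least 1 over Cd8a and Cd8b1, none of Cd4, and at least 2 over Gzma and Gzmb. It also had fewer than 2 UMIs over the checkpoint receptor genes Pdcd1, Lag3, Havcr2 and Tigit, none of Cd79a or C1qa, and less than 3% of its UMIs in S100a8 and S100a9. All of these values chose the cells and are given only as a description. At the granzyme threshold, 9 members in PBS and 12 in cmExoaCD11b held exactly 2 granzyme UMIs, while 14 and 27 CD8 T cells with a single granzyme UMI lay just outside. At the checkpoint threshold, 15 and 32 members held 1 checkpoint UMI, and 6 and 25 granzyme-positive cells with 2 lay outside.

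The members held 288731 UMIs in PBS and 852753 in cmExoaCD11b. A member had a median of 6616 UMIs in PBS, from 1432 to 19539, and of 3724.5 in cmExoaCD11b, from 1071 to 43848, so that the cmExoaCD11b members were shallower cell by cell. The deepest single member held 6.77% of the UMIs in PBS and 5.14% in cmExoaCD11b. Levels are therefore given in CPM, for which the members' UMIs of each library were summed and scaled to a total of 1000000, and ratios as cmExoaCD11b over PBS. Brackets hold exact 95% intervals (Poisson for CPM, conditional binomial for ratios, Clopper-Pearson for shares), which cover counting error only and not the spread between mice.

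The label was checked on genes that the rule did not use. Ccl5, a chemokine of cytotoxic lymphocytes, was detected in all members of both libraries, and Nkg7, a protein of cytotoxic granules, in 95.2% and 95.7%. In B cells Ccl5 was detected in 7.08% and 13.5% and Nkg7 in 2.5% and 4.04%, while in CD8 T cells without granzyme Ccl5 was detected in 80.8% and 79% and Nkg7 in 75% and 72%. Ncr1, which encodes the NK cell receptor NKp46, was found in 0% of the PBS members and 0.543% of the cmExoaCD11b members, against 94.4% and 77.9% of the NK cells of these libraries. Klrb1c, which encodes the NK cell receptor NK1.1, was found in 14.3% (5.43 to 28.5%) and 11.96% (7.65 to 17.5%) of members, against 5.77% and 1% of CD8 T cells without granzyme, 0% and 0.673% of B cells and 100% and 97.1% of NK cells. Trdc, of the gamma-delta T cell receptor, was found in 2.38% and 0.543% of the members. The methods of the study name male mice, and in the members Xist had 0 UMIs in either library while Ddx3y, a Y-linked gene, had 25 and 141. Among barcodes that passed the filters, 15 occurred in both libraries, and 0 of these were members.

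RNA of other cell types was present in the members and differed between the libraries. Summed levels of neutrophil markers were 2815.8 CPM in PBS and 5532.7 CPM in cmExoaCD11b, led by S100a9, with 4 of 9 tested markers at least 2-fold higher in cmExoaCD11b. B cell markers summed to 228.6 and 2961 CPM, led by Igkc, of which 2127 of 2493 UMIs lay in 1 cmExoaCD11b member, while Cd79a was at 0 by the rule. Macrophage and monocyte markers, led by Lyz2, went the other way, at 1413.1 and 907.6 CPM. Neutrophil markers other than the gate's S100a8 and S100a9 stood in the members at 2.72% of their level in droplets with 10 to 100 UMIs in PBS and at 4.29% in cmExoaCD11b. Markers of tumor epithelial cells had 1 and 8 UMIs and those of fibroblasts 0 and 1. These shares served as an estimate of free RNA, which was taken off the counts as an alternative. The part of whole cells of another type joined to a member was not tested, but 4 PBS and 7 cmExoaCD11b members rich in genes of other types (at least 10 UMIs of Elane, Mpo and Prtn3, of Ighg1 and Jchain, of Slpi and Saa3, or of Apoe, Spp1 and Ccl24) were left out as an alternative, and genes whose values depended on them are named.

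The first comparison was of abundance. Members made up 0.608% of all cells in PBS (0.439 to 0.821%) and 2.59% in cmExoaCD11b (2.23 to 2.98%), a ratio of 4.25 (3.02 to 6.09). All T cells made up 5.92% of cells in PBS and 13.8% in cmExoaCD11b, a ratio of 2.33 (2.07 to 2.62), so that members were also a larger part of the T cells, at 10.3% and 18.7%. Within CD8 T cells, 42 of 143 (29.4%, 22.1 to 37.6%) passed the granzyme gate in PBS and 184 of 390 (47.2%, 42.1 to 52.3%) in cmExoaCD11b, a ratio of 1.61 (1.14 to 2.30). Every CD8 T cell was then thinned to 1000 UMIs, so that depth was equal. On the thinned counts 22 of 143 (15.4%) and 174 of 390 (44.6%) passed the granzyme and checkpoint thresholds, a ratio of 2.90 (1.86 to 4.75). As sequenced, the CD8 T cells had median depths of 5329 and 4121 UMIs. CD8 T cells with no granzyme UMI and fewer than 2 checkpoint UMIs made up 36.4% and 25.6% of CD8 T cells, a ratio of 0.705 (0.4995 to 1.01), and the interval of that ratio reached 1. CD8 T cells with at least 2 checkpoint UMIs made up 24.5% and 20.3%, a ratio of 0.828 (0.549 to 1.27). Each library is a single pool, so a share measures that pool and not its mice.

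Granzyme content per cell was fixed from below by the gate. By its median it differed more between the libraries for Gzma than for Gzmb, while by the summed level the ratio was larger for Gzmb. The median member held 2 Gzma UMIs in PBS (0 to 104) and 13 in cmExoaCD11b (0 to 144). For Gzmb the medians were 3 (0 to 35) and 4 (0 to 111). The ranges overlapped throughout, but per 10000 UMIs of a cell the median of Gzma was 2.53 in PBS and 35.0 in cmExoaCD11b, against 6.01 and 9.30 for Gzmb. Summed over members, Gzma stood at 2088.4 and 3936.7 CPM, a ratio of 1.89 (1.73 to 2.06), and Gzmb at 775.8 and 1869.2 CPM, a ratio of 2.41 (2.09 to 2.78). In PBS, 18 of 42 members (42.9%, 27.7 to 59.0%) had Gzmb without Gzma, 22 had both and 2 had Gzma alone. In cmExoaCD11b, 32 of 184 (17.4%, 12.2 to 23.7%) had Gzmb without Gzma, 135 had both and 17 had Gzma alone.

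**Figure D1:**
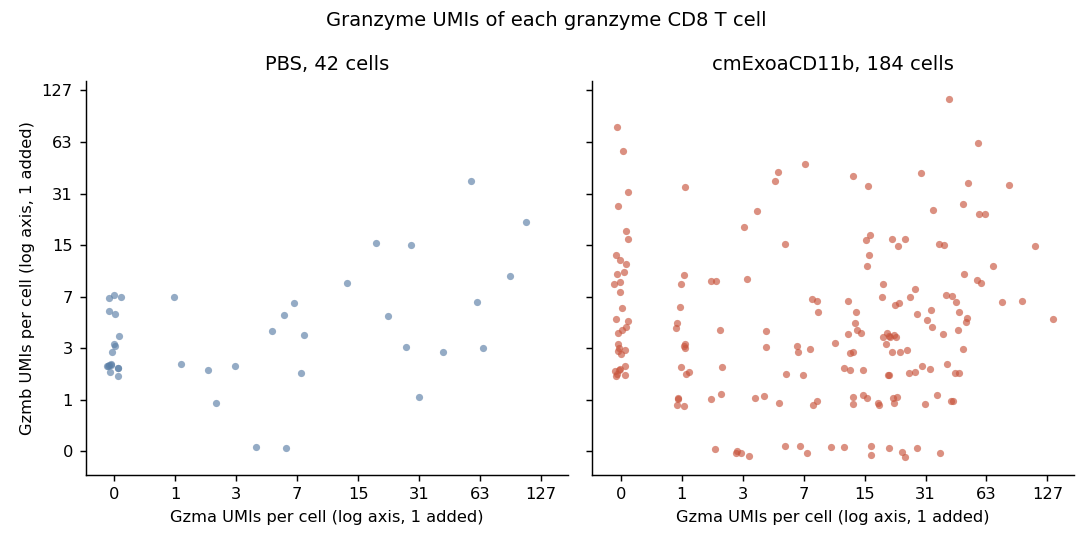
Gzma UMIs (horizontal, log axis after adding 1) against Gzmb UMIs (vertical, likewise) in each of the 42 PBS members (left) and 184 cmExoaCD11b members (right), 1 point per cell with a small jitter. The column of points at 0 Gzma holds 18 cells in PBS and 32 in cmExoaCD11b, and the cells of both libraries otherwise cover overlapping ranges, with medians of 2 and 13 Gzma UMIs.

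Across the transcriptome of the members, 3919 genes had at least 50 UMIs over both libraries. With 1 UMI added to each sum, 219 of them (5.59%) were at least 2-fold higher in cmExoaCD11b and 60 (1.53%) at least 2-fold lower. When the members were scaled by the median ratio of all genes, the split was 176 higher and 88 lower, and with the estimated free RNA taken off it was 228 and 71. The median log2 ratio of all tested genes was 0.09. Interferon-stimulated genes were the list with the most genes past 2-fold. Of 53 tested members of this list, 31 were at least 2-fold higher and 0 at least 2-fold lower, against the 5.59% and 1.53% of all genes. Their median log2 ratio was 1.16, and 51 of 53 had a ratio above 1. Together they made up 6192.6 CPM in PBS and 12279.1 CPM in cmExoaCD11b.

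Promoters are shown for 4 of these genes, chosen after their values had been seen to cover large and small differences, because a short element recurred in front of the interferon-stimulated genes. The element searched was GAAANNGAAA or its reverse complement TTTCNNTTTC, the core of the interferon-stimulated response element bound by STAT and IRF complexes, on both strands of the 250 bases before each start. It was present before 936 of 27025 genes with a RefSeq promoter (3.46%), before 27 of the 50 interferon-stimulated genes with an entry (54%), and before 16 of the 25 entries at least 2-fold higher (64%) and 8 of the 18 entries tested and below 2-fold (44.4%). On other lists it was present before 4 of 21 granule genes (19%), 3 of 16 genes of MHC class I presentation (18.8%), 2 of 11 effector transcription factors (18.2%), 0 of 12 homing and residency genes and 0 of 10 genes of the T cell receptor complex. A match describes these letters and is not a measured binding site. The sequences come from RefSeq (GRCm38.p6), run 5′ to 3′ in the direction of the gene and end at the base before its start, with matches in capitals. Isg15 lies on chromosome 4 (chr4:156200819-156201068, minus strand), Ifit1 on chromosome 19 (chr19:34640639-34640888, plus strand), Rsad2 on chromosome 12 (chr12:26456453-26456702, minus strand) and Slfn5 on chromosome 11 (chr11:82951852-82952101, plus strand).
Isg15: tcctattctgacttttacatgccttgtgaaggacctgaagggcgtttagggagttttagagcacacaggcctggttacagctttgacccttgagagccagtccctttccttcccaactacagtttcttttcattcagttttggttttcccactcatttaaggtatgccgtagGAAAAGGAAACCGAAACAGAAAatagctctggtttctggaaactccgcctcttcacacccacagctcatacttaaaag
Ifit1: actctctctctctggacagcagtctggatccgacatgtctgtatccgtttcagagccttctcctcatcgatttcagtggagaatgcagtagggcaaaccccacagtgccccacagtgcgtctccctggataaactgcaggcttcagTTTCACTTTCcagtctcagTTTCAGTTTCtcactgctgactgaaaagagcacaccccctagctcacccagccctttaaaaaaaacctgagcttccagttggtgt
Rsad2: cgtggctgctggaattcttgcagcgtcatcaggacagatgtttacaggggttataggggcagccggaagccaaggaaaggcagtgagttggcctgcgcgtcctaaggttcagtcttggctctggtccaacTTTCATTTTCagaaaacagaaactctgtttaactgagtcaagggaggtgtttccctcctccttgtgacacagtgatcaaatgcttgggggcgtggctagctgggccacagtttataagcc
Slfn5: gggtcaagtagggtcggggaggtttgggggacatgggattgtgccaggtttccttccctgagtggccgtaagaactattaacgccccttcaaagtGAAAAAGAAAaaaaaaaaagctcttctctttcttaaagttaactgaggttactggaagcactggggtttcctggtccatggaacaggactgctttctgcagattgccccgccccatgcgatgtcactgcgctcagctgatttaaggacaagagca
The Isg15 promoter held 3 overlapping matches, from 78 to 57 bases before the start. Ifit1 held 2 matches within 104 to 76 bases before it, and Rsad2 and Slfn5 held 1 each, at 120 to 111 and at 155 to 146 bases.

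Slfn5, a member of the Schlafen family, had 1 UMI in PBS and 76 in cmExoaCD11b, or 3.46 and 89.1 CPM, a ratio of 25.7 whose interval (4.48 to 1029.6) shows how little the single PBS count fixes. Rsad2, which encodes the antiviral enzyme viperin, had 10 and 170 UMIs, or 34.6 and 199.4 CPM, a ratio of 5.76 (3.05 to 12.2). Isg15, a ubiquitin-like modifier, had 112 and 774 UMIs, or 387.9 and 907.6 CPM, a ratio of 2.34 (1.92 to 2.88). It was detected in 50% and 69% of members, and after thinning to 1000 UMIs in 14.3% and 44.6%, against 3.3% and 6.4% of B cells thinned alike, whose full median depths were 4895.5 and 6685 UMIs. B cells are used here as a floor, although they too can respond to interferon. Ifit1, an RNA-binding antiviral protein, had 93 and 515 UMIs, a ratio of 1.88 (1.501 to 2.36), but 35 of the PBS UMIs lay in 1 cell, and without the highest cell of each library the ratio was 2.66. Ifit2 of the same family rested on 1 PBS cell more strongly, with 41 of 49 UMIs, and its ratio of 2.14 (1.58 to 2.96) became 9.57 without the highest cells. Leaving out the highest cell takes a larger part of a sum from 42 PBS members than from 184 cmExoaCD11b members. Ratios therefore tend upward with this step.

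Other genes of the list covered several functions. Ifih1, the RNA sensor MDA5, had 15 and 209 UMIs, a ratio of 4.72 (2.80 to 8.58). Zbp1, a sensor of Z-form nucleic acid, had 13 and 174 UMIs, a ratio of 4.53 (2.58 to 8.68). Bst2, the virus-tethering protein tetherin, had 24 and 266 UMIs, a ratio of 3.75 (2.47 to 5.96). The feedback inhibitor Usp18, a protease that removes ISG15, had 5 and 63, a ratio of 4.27 (1.74 to 13.6). Chemokine gene Cxcl10, which recruits CXCR3-bearing lymphocytes, had 90 and 626 UMIs, a ratio of 2.35 (1.89 to 2.97), which was 3.63 without the highest cell of each library. Not all of the list lay past 2-fold: the ratio of Irf7, a factor that amplifies type I interferon, was 1.46 with an interval that included 1 (0.919 to 2.40). Ly6e (0.896, 0.735 to 1.10) and Slfn2 (0.817, 0.615 to 1.10) had ratios under 1 with intervals that reached above it.

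**Figure D2:**
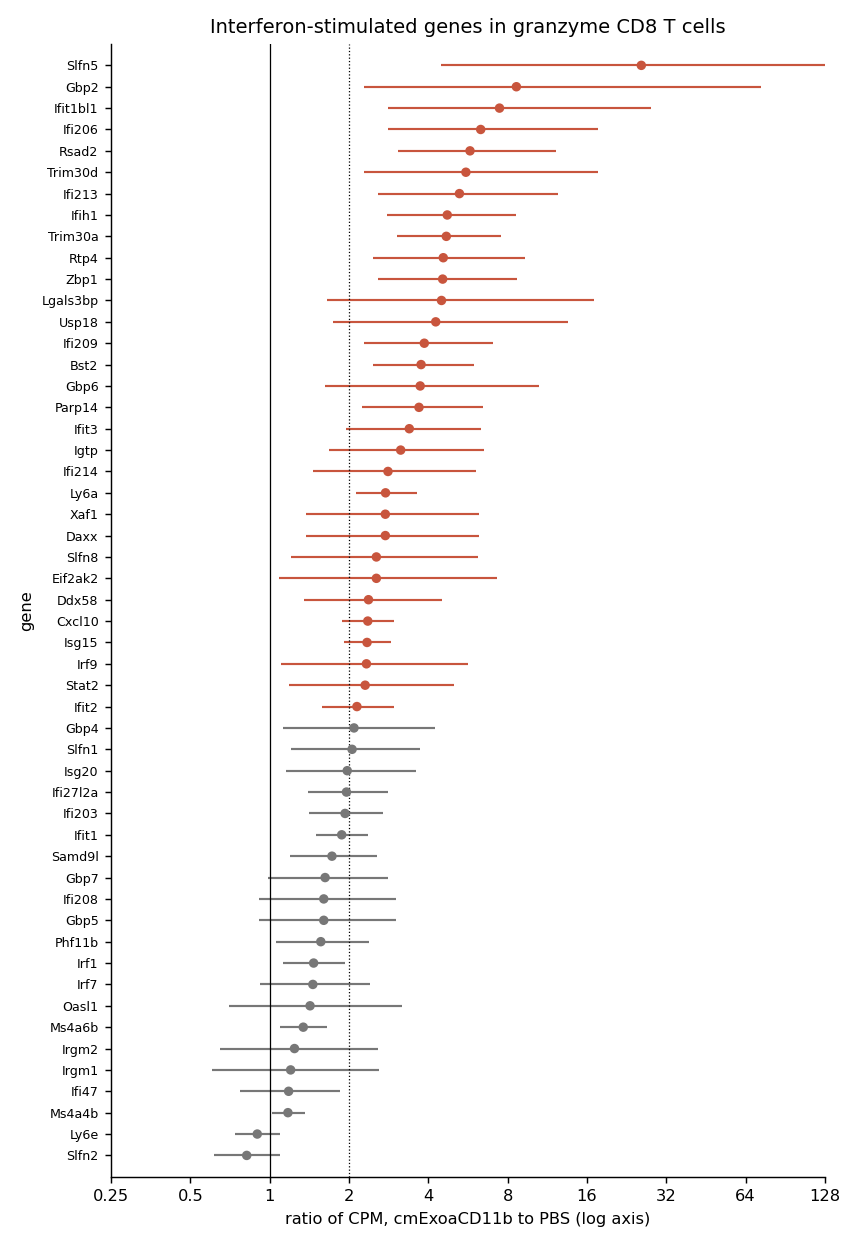
Ratio of CPM, cmExoaCD11b to PBS, on a log axis for 52 of the 53 tested interferon-stimulated genes in the members, with exact 95% intervals. Red marks the 31 genes at least 2-fold higher with 1 UMI added, the solid line a ratio of 1 and the dotted line a ratio of 2, and the interval of Slfn5 runs past the right edge.

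Per cell, interferon-stimulated genes took a median of 48.8 of every 10000 UMIs in the PBS members, with a range of 14.2 to 236.3, and of 81.2 in the cmExoaCD11b members, with a range of 9.58 to 825.5. The lower and upper quartiles were 30.3 and 74.8 in PBS and 50.4 and 176.6 in cmExoaCD11b, so the groups overlapped widely and the cmExoaCD11b members spread further upward. After thinning to 1000 UMIs, 2 of 42 PBS members (4.76%, 0.582 to 16.2%) and 43 of 184 cmExoaCD11b members (23.4%, 17.5 to 30.2%) held at least 20 such UMIs. The same direction was present in other lymphocytes. The medians per 10000 UMIs were 59.9 and 91.9 in CD8 T cells without granzyme, 47.2 and 83.7 in checkpoint CD8 T cells, 40.0 and 54.7 in NK cells and 23.6 and 37.0 in B cells. In droplets with 10 to 100 UMIs the list stood at 3654.8 CPM in PBS and 6855.1 CPM in cmExoaCD11b, so free RNA moved the same way. With the estimated free RNA taken off the members' counts, 31 of 53 genes were at least 2-fold higher and the median log2 ratio was 1.18. Summed over NK cells the list stood at 8290.1 and 8718.8 CPM, with 35.97% of its PBS UMIs in 1 of 18 cells. By gene, 43 of 53 tested genes of the list were at least 2-fold higher in checkpoint CD8 T cells (median log2 ratio 1.69) and 18 of 36 in CD8 T cells without granzyme (0.91), against 586 of 4117 and 183 of 2723 genes in all. In NK cells 1 of 14 was at least 2-fold higher and 2 were lower (median -0.11), against 63 and 54 of 1218 genes in all. The difference between classes was not tested.

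**Figure D3:**
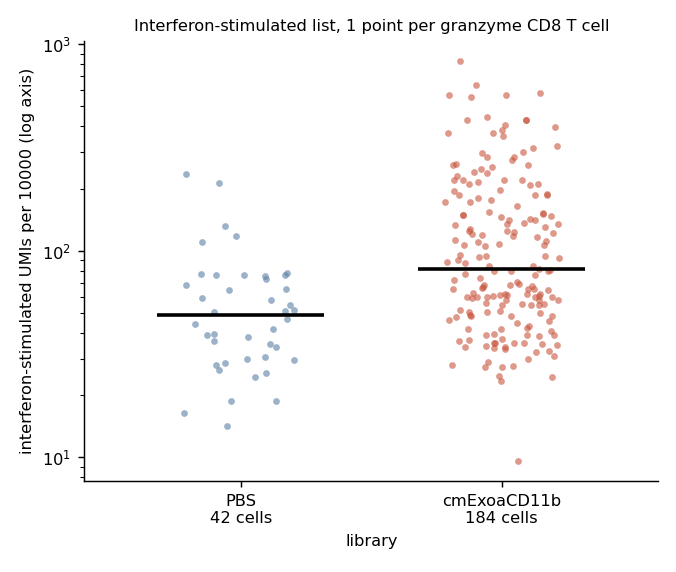
UMIs of interferon-stimulated genes per 10000 UMIs (log axis) in each of the 42 PBS and 184 cmExoaCD11b members, 1 point per cell, with bars at the medians of 48.8 and 81.2. The cmExoaCD11b members reach 825.5, above the highest PBS member at 236.3, and the lower parts of both groups overlap.

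Transcription factors of effector T cells showed 3 of 14 tested genes at least 2-fold higher and 0 lower, against 5.59% and 1.53% of all genes, with a median log2 ratio of 0.57 against 0.09. With the mean over cells of the share of UMIs, 1 of the 14 was at least 2-fold higher. Tbx21, which encodes T-bet, the factor that drives type 1 effector genes, stood at 194 CPM in PBS (146.5 to 251.9) and 572.3 CPM in cmExoaCD11b (522.6 to 625.4), a ratio of 2.95 (2.23 to 3.96). It was detected in 59.5% and 65.2% of members as sequenced, and in 14.3% and 33.2% at 1000 UMIs, against 4.58% and 7.74% of B cells as sequenced. With the gate set on counts thinned to 1000 UMIs its log2 ratio was 0.89, below 2-fold, against 1.54. The related factor Eomes had 8 and 78 UMIs, a ratio of 3.30 (1.595 to 7.91), and a log2 ratio of 0.12 under the thinned gate. Batf, an AP-1 family factor of activated T cells, had 18 and 125, a ratio of 2.35 (1.43 to 4.10). Zeb2, a repressor that acts with T-bet in terminal effectors, was already abundant in PBS, at 665 CPM, and stood at 960.4 CPM in cmExoaCD11b, a ratio of 1.44 (1.23 to 1.70). Runx3, the factor of CD8 lineage identity, had a ratio of 1.00.

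Homing and surface receptors split in both directions. Of 18 tested genes for residency and homing, 2 were at least 2-fold higher and 3 at least 2-fold lower, against 5.59% and 1.53% of all genes, with a median log2 ratio of 0.01. S1pr5, a sphingosine-1-phosphate receptor of circulating effector cells, had 1 UMI in 1 PBS cell and 63 UMIs in 44 cmExoaCD11b cells, or 3.46 and 73.9 CPM, a ratio of 21.3 (3.69 to 855.7). It was found in 23.9% of the cmExoaCD11b members, in 0 of 297 B cells of that library and in 0 of 100 CD8 T cells without granzyme. By a floor of 3 cells these counts of 0 allow up to 1.01% and 3% of those cells. By the exact interval they allow up to 1.23% and 3.62%. NK cells held S1pr5 in 33.3% of cells in PBS and 23.5% in cmExoaCD11b. At 1000 UMIs it was found in 0% and 12.5% of the members. Cx3cr1, the fractalkine receptor of circulating effectors, had 12 and 96 UMIs, a ratio of 2.71 (1.48 to 5.43). Over the alternatives its log2 ratio ranged from 0.73 to 1.96, so its call as 2-fold higher was not kept in all of them. With at least 4 granzyme UMIs, or with the gate set on thinned counts, 1 of the 18 genes was at least 2-fold higher. Klrg1, an inhibitory receptor of terminal effectors, had 25 and 123, a ratio of 1.67 (1.08 to 2.67), and Slamf7, a receptor of cytotoxic cells on the list of NK-type receptors, 21 and 176, a ratio of 2.84 (1.80 to 4.70).

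The 3 lower genes of the list were Cxcr6, Cxcr3 and Itgae. Cxcr6, the receptor for CXCL16, had 81 and 117 UMIs, or 280.5 and 137.2 CPM, a ratio of 0.489 (0.365 to 0.657), and was detected in 29 of 42 and 57 of 184 members, or 30.95% and 16.3% at 1000 UMIs, against 0.8% and 0.3% of B cells as sequenced. With the gate set on thinned counts the log2 ratio of Cxcr6 was -0.45, short of 2-fold, and 1 of the 18 genes of the list was at least 2-fold lower. Cxcr3, the receptor for CXCL9 and CXCL10, had 28 and 23 UMIs, a ratio of 0.278 (0.153 to 0.501). Itgae, the integrin CD103 of epithelium-resident cells, had 27 and 24 UMIs, a ratio of 0.301 (0.166 to 0.542), but 12 of the PBS UMIs lay in 1 of 6 cells, and among members with at least 4 granzyme UMIs the log2 ratio was 0.19. The residency integrin Itga1 had a ratio of 0.899 (0.655 to 1.25), so the genes named for residency did not share 1 direction. By cell, 2 of 42 PBS members (4.76%) and 65 of 184 cmExoaCD11b members (35.3%) had a UMI of S1pr5, Cx3cr1 or Klrg1 and none of Itgae, Cxcr6, Xcl1 or Cxcr3. The opposite combination was found in 23 (54.8%) and 41 (22.3%). At 1000 UMIs these shares were 7.14% and 23.4%, and 40.5% and 21.2%. These 2 sets were put together after the values had been seen and carry no test.

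**Figure D4:**
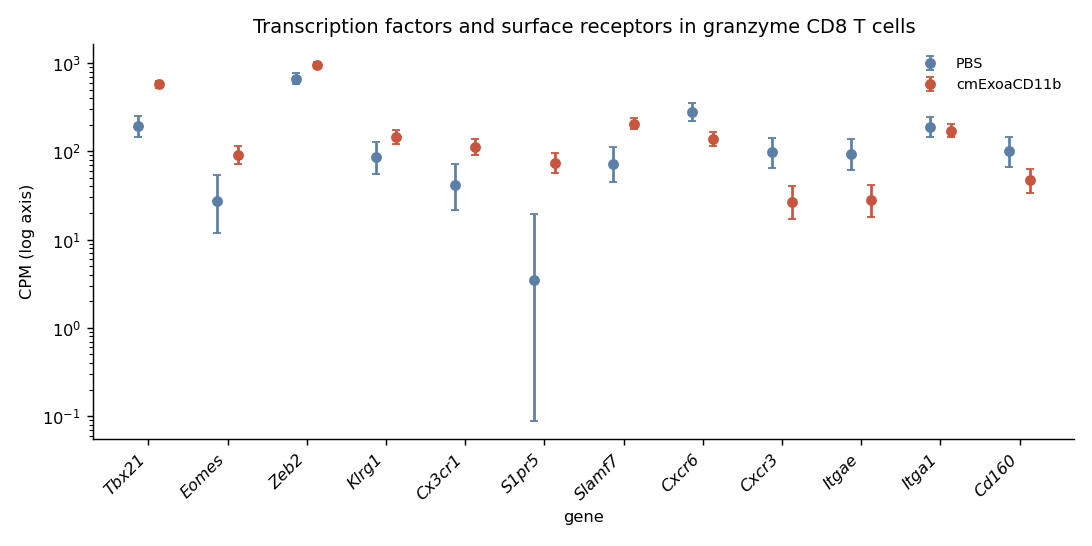
Level in CPM (log axis) of 12 transcription factors and receptors in the members of each library, with exact Poisson 95% intervals. Tbx21, Eomes, Cx3cr1, Slamf7 and S1pr5 lie higher in cmExoaCD11b, and Zeb2 and Klrg1 lie higher by less than 2-fold. Cxcr6, Cxcr3, Itgae and Cd160 lie lower, and Itga1 lies close in both libraries.

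Among genes of cytotoxic granules, 2 of 15 tested were at least 2-fold higher, against 5.59% of all genes: Gzmb, which the gate used, and Prf1, which encodes perforin. Prf1 had 12 and 85 UMIs, or 41.6 and 99.7 CPM, a ratio of 2.40 (1.30 to 4.82), and was detected in 21.4% and 33.2% of members, or 0% and 9.24% at 1000 UMIs, against 2.5% and 3.37% of B cells as sequenced. With at least 4 granzyme UMIs 0 of the 15 genes were at least 2-fold higher, with Prf1 at a log2 ratio of 0.75, and without the members with a Trav14n-3 UMI 1 was, with Prf1 at 0.89. Gzmk, a granzyme of less differentiated effectors, had 83 and 237 UMIs, a ratio of 0.967 (0.750 to 1.26), and Nkg7 had 497 and 1494, a ratio of 1.02 (0.919 to 1.13). The median log2 ratio of the list was 0.12, near that of all genes. Ctsw, the protease cathepsin W of cytotoxic cells, had a ratio of 0.591 (0.478 to 0.732).

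Effector cytokines held no common direction, with 1 of 10 tested genes at least 2-fold higher, 2 at least 2-fold lower and a median log2 ratio of -0.54, against 5.59%, 1.53% and 0.09 for all genes. The higher gene was Cxcl10, also on the interferon-stimulated list, and the lower ones were Xcl1 and Spp1, a gene of macrophages with 60 of its 99 PBS UMIs in 1 cell. Ifng, interferon gamma, had 156 and 542 UMIs, a ratio of 1.18 (0.983 to 1.42) with an interval that included 1. Ccl5 had 4793 and 18630 UMIs, a ratio of 1.32 (1.28 to 1.36). Tnf had a ratio of 0.563 (0.407 to 0.784), with 26 UMIs in 1 PBS cell, and of 0.948 (0.609 to 1.51) without the members rich in other types' genes. Xcl1, the chemokine for cross-presenting dendritic cells, had 54 and 26 UMIs, a ratio of 0.163 (0.0980 to 0.265), with 35 of the PBS UMIs in 1 cell and a ratio of 0.297 without the highest cell. Without the members rich in other types' genes it was 0.104, and that of Spp1, 0.0821 over all members, was 0.207. Over the alternatives the log2 ratio of Xcl1 ranged from -3.23 to -0.59, so its call as 2-fold lower was not kept in all of them.

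The receptor of IL-12, whose mRNA the exosomes carried, pairs a chain of its own with a shared one, and the gene of its own chain, Il12rb2, had 56 and 142 UMIs, a ratio of 0.859 (0.626 to 1.19). Of 14 tested cytokine receptor genes, 1 was at least 2-fold higher, near the 5.59% of all genes, Il10ra of the interleukin 10 receptor, with 8 and 92 UMIs and a ratio of 3.89 (1.90 to 9.29). Median log2 ratio of the list was 0.19. Il18rap, an interleukin 18 receptor chain, and Il2rb, the shared interleukin 2 and 15 chain, had ratios of 1.98 (1.44 to 2.78) and 1.84 (1.29 to 2.67). On the STING pathway list, 1 gene had enough UMIs: the kinase Tbk1, with 24 and 59 UMIs, a ratio of 0.832.

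The remaining lists held few genes past 2-fold, to be read against 5.59% of all genes higher and 1.53% lower. Of 17 tested genes of MHC class I presentation, 0 lay past 2-fold in either direction and the median log2 ratio was 0.14, while Psmb10, an immunoproteasome subunit, had a ratio of 1.94. Of 17 genes of the T cell receptor complex, 0 lay past 2-fold and the median was -0.13. Of 8 naive and memory genes, 0 lay past 2-fold and the median was -0.15, with Lef1, a factor of naive cells, at 0.520 (0.365 to 0.747) and the interleukin 7 receptor gene Il7r at 0.959 (0.626 to 1.51). Of 11 NK-type receptor genes, Slamf7 was at least 2-fold higher and Cd160, an inhibitory and costimulatory receptor, at least 2-fold lower, with 29 and 40 UMIs and a ratio of 0.467 (0.282 to 0.781), and the median was -0.09. Of 19 immediate-early genes, which respond quickly to receptor signals, 3 were at least 2-fold higher, against 5.59% of all genes, with a median log2 ratio of 0.40: Nr4a3 with 26 and 211 UMIs (2.75, 1.82 to 4.30), Nr4a2 with 75 and 480 (2.17) and Egr1 with 44 and 272 (2.09). Tissue dissociation also acts on such genes, and its part was not tested. On the checkpoint and costimulation list, which shares genes with the gate, 1 of 8 was at least 2-fold higher (median 0.25), Tnfrsf9, which encodes the costimulatory receptor 4-1BB, with 8 and 61 UMIs and a ratio of 2.58.

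Proliferation genes depended on which members were counted. Of 15 tested, 1 was at least 2-fold higher and 3 at least 2-fold lower, Stmn1, Ube2c and Tubb5, against 5.59% and 1.53% of all genes, with a median log2 ratio of -0.08. Without the members rich in other cell types' genes 0 were higher and 6 lower, with a median of -0.44, against 207 and 66 of 3430 genes in all, and with no checkpoint UMI 1 was higher and 5 were lower, with a median of -0.58, against 289 and 62 of 3146. Rrm2, a subunit of ribonucleotide reductase, had 10 and 112 UMIs and a ratio of 3.79, but 72 of the UMIs lay in 1 cmExoaCD11b cell, and without the members rich in other cell types' genes the ratio was 0.431 (0.175 to 1.10). The ratio of Stmn1, a microtubule regulator of dividing cells, was 0.465, and 0.308 without those members. Mki67 had a ratio of 1.32 (0.788 to 2.31), Top2a of 0.940 (0.649 to 1.38), and Tubb5, a tubulin, of 0.422. Members with at least 2 UMIs of Mki67 and Top2a numbered 6 of 42 (14.3%, 5.43 to 28.5%) and 22 of 184 (11.96%, 7.65 to 17.5%), with overlapping intervals. Among 16 glycolysis and hypoxia genes, 2 were at least 2-fold higher, against 5.59% of all genes: Slc2a1, the glucose transporter GLUT1, at 2.60 and Bnip3, a mitophagy receptor, at 2.48, with a median log2 ratio of 0.11. Of the Bnip3 UMIs 22 lay in 1 cell, and without the members rich in other types' genes the ratios were 1.79 (0.903 to 3.94) for Slc2a1 and 0.730 (0.234 to 2.68) for Bnip3.

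Of the 20 genes with the largest and smallest ratios, 12 held over 50% of their UMIs of the library with the higher level in a single cell of it. These were mostly genes of other cell types, such as the plasma cell gene Ighg1 (0 and 1183 UMIs, 1134 of them in 1 cell), the neutrophil precursor gene Elane (4 and 941, 910 in 1 cell) and the macrophage gene Ccl24 (134 of 134 PBS UMIs in 1 cell). Genes spread over many members were Trav14n-3, Slfn5, Rgs10 (53 and 29 UMIs, ratio 0.185), an inhibitor of G protein signaling, Gm11808 (31 and 30 UMIs, ratio 0.328) and Cxcr3. With the highest member of each library left out for every gene, 328 genes (8.37%) were at least 2-fold higher and 51 (1.3%) lower. The median log2 ratio of all tested genes was then 0.19, against 0.09 with every member kept, so ratios rose in general with this step.

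The gate itself splits CD8 T cells, so the members were set against CD8 T cells without granzyme, as a description. Of 5376 genes, 45 (0.837%) were at least 2-fold higher in members in both libraries and 43 (0.8%) at least 2-fold lower. Tcf7, the factor of naive and memory cells, stood at 0.0901 (0.0280 to 0.225) of the level in cells without granzyme in PBS and at 0.102 (0.0614 to 0.161) in cmExoaCD11b. Klrg1 was 5.52-fold (1.91 to 21.8) higher in members in PBS, against 4 UMIs in the cells without granzyme, and 8.67-fold (4.26 to 20.5) higher in cmExoaCD11b. Lgals1, the lectin galectin-1 of activated T cells, was 3.46-fold and 3.83-fold higher. Birc5, a gene of dividing cells, was 19.4-fold (3.14 to 801.8) and 10.3-fold (3.36 to 51.7) higher, against 1 and 3 UMIs in the cells without granzyme. Cd74, a chaperone of MHC class II in antigen-presenting cells, stood at 0.0618 and 0.146, but 188 of its 200 PBS UMIs and 69 of its 162 cmExoaCD11b UMIs in the cells without granzyme lay in 1 cell of each library. With the highest cell of each class left out the ratios were 0.592 (0.220 to 1.53) and 0.208 (0.137 to 0.310).

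Some genes related to the gate differently in each library. Tbx21 stood at 0.838 (0.571 to 1.23) of the level in cells without granzyme in PBS but was 2.22-fold (1.82 to 2.73) higher in cmExoaCD11b. Cx3cr1 stood at 1.51 times (0.549 to 4.54) that level in PBS, with an interval that included 1, and at 6.01 times (3.04 to 13.6) in cmExoaCD11b. For Prf1 the values were 1.06 (0.420 to 2.74) and 1.65 (1.07 to 2.61). S1pr5 had 0 UMIs in CD8 T cells without granzyme of either library, and in cmExoaCD11b the members were at least 11.8-fold higher against a floor of 3 UMIs over that class. These differences between libraries were not tested. Checkpoint CD8 T cells had Klrg1 at 19.5 and 31.1 CPM, against 86.6 and 144.2 CPM in members, and Prf1 at 441.2 and 129.5 CPM, against 41.6 and 99.7 CPM.

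Members that had Gzmb without Gzma were set against those with a Gzma UMI. Cx3cr1 had 1 UMI in the Gzmb-only members and 11 in the others in PBS (ratio 0.141, 0.00328 to 0.973), and 0 and 96 in cmExoaCD11b, where the interval reached up to 0.174. S1pr5 had 1 UMI in the cmExoaCD11b Gzmb-only members and 62 in the others (0.0715, 0.00178 to 0.413). Klrg1 was lower too, at 0.212 (0.0406 to 0.706) and 0.569 (0.301 to 0.997). Rasgrp2, a Rap1 activator of lymphocyte adhesion, had 0 and 27 UMIs in PBS and 1 and 107 in cmExoaCD11b. Xcl1 was 5.44-fold and 5.17-fold higher in the Gzmb-only members, but 35 of 42 PBS UMIs and 9 of 14 cmExoaCD11b UMIs of these members lay in 1 cell of each library. Cxcl10, on the other side, was 7.19-fold (4.15 to 13.2) and 3.13-fold (2.66 to 3.68) higher. Isg15 was 2.15-fold (1.45 to 3.20) and 2.26-fold (1.93 to 2.62) higher, with 32 of the 65 PBS UMIs in 1 cell. With the highest cell of each subset left out, the Isg15 ratios were 1.67 (0.994 to 2.80) and 2.09 (1.77 to 2.46), and those of Cxcl10 were 6.87 (3.12 to 17.2) and 2.90 (2.41 to 3.48). Not all interferon-stimulated genes had this direction in PBS. There Ifih1 had 1 UMI in the Gzmb-only members and 14 in the others (ratio 0.111, interval up to 0.73). Rsad2 had 0 and 10 in PBS, with an interval up to 0.694. In cmExoaCD11b both genes were higher in the Gzmb-only members, at 3.35 for Ifih1 and 1.501 for Rsad2. The interval for Tbx21 included 1 in both libraries, at 0.933 (0.516 to 1.65) and 0.843 (0.653 to 1.08).

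A single T cell receptor segment stood out among the genes higher in cmExoaCD11b. Trav14n-3 is a variable segment of the T cell receptor alpha chain, which a T cell clone and its progeny share once rearranged. It had 0 UMIs in the 42 PBS members, which allows a share of up to 7.14% of cells with a UMI by a floor of 3 cells and up to 8.41% by the exact interval, and 124 UMIs in 45 of 184 cmExoaCD11b members (24.5%, 18.4 to 31.3%), with at most 11 in a cell. Against the floor of 3 UMIs over the PBS members its level was at least 13.99-fold higher, and by the exact interval at least 11.2-fold. Its sequence is shown because near-identical copies could share its reads. The segment lies at chr14:53370077-53370575 on the plus strand (GRCm38, GENCODE vM21), in the T cell receptor alpha and delta locus, and its transcript has 280 bases. Capitals mark the 5 bases that differ from the nearest segment, Trav14-3, with 98.2% identity.
Trav14n-3: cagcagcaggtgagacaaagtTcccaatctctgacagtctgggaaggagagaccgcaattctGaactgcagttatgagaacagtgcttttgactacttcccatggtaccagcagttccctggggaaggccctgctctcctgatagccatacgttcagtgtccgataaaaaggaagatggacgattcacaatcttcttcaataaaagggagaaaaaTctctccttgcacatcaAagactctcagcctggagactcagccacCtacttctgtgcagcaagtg
The other segments of the group had 93.6 to 96.8% identity, and the members held 0 UMIs of any of them. Because the copies are so close and the counting rule for shared reads is not known here, the exact segment is uncertain.

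In the cmExoaCD11b library the segment was also found in other classes. It was found in 4 of 27 CD8 T cells with a single granzyme UMI (14.8%, 4.19 to 33.7%, an interval that held the 24.5% of the members), 5 of 100 without granzyme (5%, 1.64 to 11.3%) and 9 of 79 with checkpoint UMIs (11.4%, 5.34 to 20.5%). It was found in 0 of 297 B cells and 0 of 68 NK cells, which do not rearrange the alpha chain and serve as background, and in 0 of 251 CD4 T cells. Counts of 0 in these classes allow shares of up to 1.01%, 4.41% and 1.195% by that floor. In the PBS library 2 of 409 T cells held it. Another 38 cells of the cmExoaCD11b library with a UMI of it lay outside the T cell gate. Variable segments lie far from the 3′ end that these libraries sequence, and any alpha segment was found in 7 PBS members and 59 cmExoaCD11b members, and after Trav14n-3 the segment with most UMIs in the cmExoaCD11b members was Trav13-2, with 9 UMIs in 2 cells, followed by Trav4-4-dv10, with 3 UMIs in 3 cells. In the PBS members the segment with most UMIs was Trav7d-3, with 4 UMIs in 4 cells. No receptor was assembled, so clones were not identified.

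**Figure D5:**
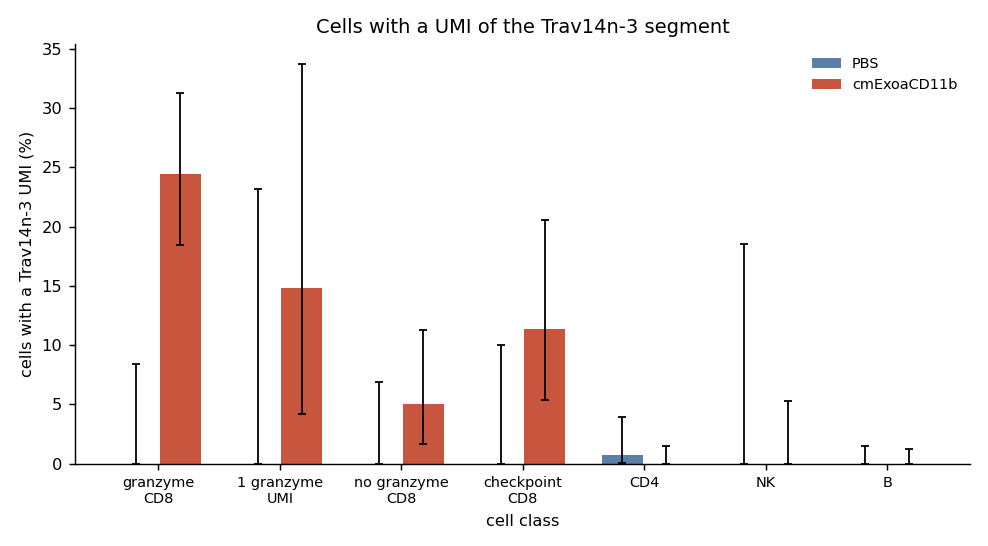
Share of cells (percent) with at least 1 UMI of Trav14n-3 in each class of each library, with exact 95% Clopper-Pearson intervals. The granzyme-expressing CD8 T cells of cmExoaCD11b have the highest share, 24.5%, against 0% of those in PBS, 5% of the CD8 T cells without granzyme and 0% of the B and NK cells in cmExoaCD11b.

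Cells with the segment also shared other features. Both beta constant genes, Trbc1 and Trbc2, were detected in 38 of 45 members with the segment (84.4%) and in 57 of 139 without it (41.0%), and Trbc2 alone in 4 (8.89%) and 63 (45.3%). Trbc1 was 3.15-fold (2.64 to 3.77) higher in the cells with the segment, Klrg1 2.53-fold (1.73 to 3.67), Tbx21 2.43-fold (2.02 to 2.93) and Prf1 2.01-fold (1.25 to 3.19). S1pr5 was 1.98-fold (1.12 to 3.40) higher. Rsad2, with 4 UMIs in the cells with the segment and 166 in the others, and Tox, a factor of exhausted T cells, with 2 and 96, were lower, at 0.0889 and 0.0768. Several other interferon-stimulated genes were lower as Rsad2 was, among them Slfn5 at 0.152 (0.0306 to 0.461), Ifit3 at 0.443 (0.241 to 0.758) and Ifit1 at 0.619 (0.477 to 0.793). The list did not share 1 direction. Ifih1 was 2.15-fold (1.603 to 2.87) and Cxcl10 1.86-fold (1.57 to 2.20) higher in the cells with the segment, and Isg15 stood at 1.09 (0.919 to 1.29). Taken gene by gene, the highest cell with the segment held 62 of the 210 Cxcl10 UMIs, 24 of 77 Ifih1 UMIs and 40 of 177 Isg15 UMIs. With the highest cells left out the ratios were 1.56 (1.28 to 1.89), 1.74 (1.23 to 2.43) and 0.914 (0.752 to 1.10). Cxcr6 was 2.07-fold (1.38 to 3.05) higher. Genes of other cell types were lower in the cells with the segment as well, Lyz2 at 0.2497 (0.161 to 0.372), S100a8 at 0.346 (0.281 to 0.422), Tyrobp at 0.118 (0.0468 to 0.247) and Igkc at 0.130 (0.104 to 0.162), and their part in the lower genes was not tested. Median depths were 3643 and 3769 UMIs. Leaving these 45 cells out, the ratio between the libraries was 2.26 (1.69 to 3.06) for Tbx21 and 17.6 (2.995 to 713.8) for S1pr5. It was 2.33 for Cx3cr1 and 0.398 for Cxcr6, so the directions of these 4 genes did not rest on these 45 cells. For Klrg1 the ratio without them was 1.26 (0.788 to 2.07), with an interval that included 1, against 1.67 over all members. For Prf1 it was 1.97 (1.04 to 4.05). Members that carry the segment without a detected UMI can remain among the others.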

How the data were processed

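UMI counts for every gene and barcode, from a 3′ droplet kit, were deposited by the authors unfiltered and without normalization. Both matrix headers name Cell Ranger 7.1.0, while the methods of the study name an earlier version. Genome build and annotation are not given in the sources used here. Members, gene lists and named genes were chosen with earlier results of these data known. Members passed the thresholds given above, and their counts were summed per library and scaled to CPM. Genes with at least 50 UMIs over both libraries were compared, and a 2-fold difference was counted with 1 UMI added. The named genes were those of the gate and of 15 lists (384 of 387 symbols were in the files), the 10 with the largest and the 10 with the smallest ratio for each comparison, the 5 each way for the Gzmb-only comparison, and the sex genes. Some of the genes selected are not reported here. The Gzmb-only comparison was set against all members with Gzma because 2 PBS members were Gzma-only. Thinning drew 1000 UMIs per cell. Scrublet's automatic threshold marked 0 cells as doublets, so none were removed, and removal by expected rate was an alternative. A total of 25 alternatives were planned and 5 added after seeing the data. Scripts were tested on simulated counts. Python 3.11.15, numpy 2.4.6, scipy 1.17.1, pandas 2.3.3, scanpy 1.11.5 and matplotlib 3.10.9 were used.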

Additional observations from a re-analysis of the deposited data

Results flagged for a closer look

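The 8 genes named here had opposite directions, past 2-fold, in the granzyme-expressing CD8 T cells and in the CD8 T cells without granzyme, with the ratio of cmExoaCD11b to PBS in the members first. The difference between the classes was not tested. App, the amyloid precursor protein, had ratios of 2.18 and 0.294. Phlda1, a gene of activated T cells, had 2.93 and 0.483, and Wfdc17, a gene of myeloid cells, 2.27 and 0.270. Slc2a1 had 2.60 and 0.369, but without the members rich in other types' genes its ratio in the members lay below 2-fold, as given above. Ero1l, an oxidase of protein folding, had 2.57 and 0.411, with 47 of its 114 UMIs in 1 cmExoaCD11b member. Ccl9 had 3.43 and 0.0687, with 82 of 162 UMIs in 1 member. Hmox1, heme oxygenase, had 2.29 and 0.113, with 49 of 88 UMIs in 1 member. Xcl1 had 0.163 in the members and 5.01 in the cells without granzyme, with 35 of 54 PBS UMIs in 1 member. Its log2 ratio in the members reached -0.59 over the alternatives, short of 2-fold.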

How the results depend on the processing

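No paired analysis was possible because each library is a pool of different mice and there is 1 library per group. For the same reason no replicate could be left out. Members numbered 28 in PBS and 158 in cmExoaCD11b with at least 4 granzyme UMIs, 27 and 152 with no checkpoint UMI, and 18 and 115 when the gate was set on thinned counts. With the thinned gate the ratio of shares of all cells was 6.20, and that of CD8 T cells 2.86. It was 2.90 when only the granzyme and checkpoint thresholds were set on the thinned counts. Interferon-stimulated genes at least 2-fold higher numbered 19 of 44 with no checkpoint UMI and 17 of 33 at a minimum of 100 UMIs. Over all genes, 430 of 6560 were higher and 261 lower at a minimum of 20 UMIs, and 120 of 2163 and 24 at 100. With the mean over cells of the share of UMIs, 107 were lower. The log2 ratio of Itgae was 0.19 with at least 4 granzyme UMIs, a reversal, and the cause was not tested. Of the other genes followed, Gzma ranged from 0.46 to 1.18, Tbx21 from 0.89 to 1.85, Prf1 from 0.75 to 1.46, Slfn5 from 1.55 to 4.399, Eomes from 0.12 to 1.98, Cxcr6 from -1.33 to -0.45 and Xcl1 from -3.23 to -0.59. Cx3cr1 ranged from 0.73 to 1.96. The ranges of Tbx21, Prf1, Eomes, Cx3cr1, Cxcr6 and Xcl1 reached values short of 2-fold, so their calls were not kept throughout. The PBS members are few and hold 288731 UMIs, so that genes near the minimum have wide intervals.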
